A study of Mus musculus with 12 samples.

Results

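The genes described here encode 9 ligand-activated nuclear receptors: the retinoic acid receptors *Rara* and *Rarg*, the retinoid X receptors *Rxra* and *Rxrb*, the liver X receptors *Nr1h2* (LXRβ) and *Nr1h3* (LXRα), the peroxisome proliferator-activated receptors *Pparg* and *Ppard*, and the vitamin D receptor *Vdr*. They were chosen by name, with earlier results of these data known. All 9 were found among the 52636 genes listed in each of the deposited count tables. RNA was sequenced from neutrophils and from macrophages of C57BL/6 J mice aged 8 to 12 weeks, with no genetic modification named. Neutrophils were isolated from bone marrow with an enrichment kit and kept in RPMI with serum for 4 h, either with 1 nM CGRP (calcitonin gene-related peptide, a neuropeptide released by sensory nerve endings) or with PBS as the saline control. Monocytes were isolated from bone marrow with a separate kit and cultured for 3 days in DMEM/F12 with serum and 10 ng/ml M-CSF, the growth factor that turns monocytes into macrophages, before the medium was exchanged for 4 h for one with 1 nM CGRP or with PBS. The macrophages are therefore a culture model, and the labels call them monocyte/macrophage. There were 3 libraries in each of the 4 groups, and nothing in the sources used here says whether they came from separate mice, so the p-values measure only the spread between these libraries. The total count was between 2719556 and 3631989 per library for saline neutrophils, 2196558 and 3270388 for CGRP neutrophils, 2536415 and 3477069 for saline macrophages, and 2002559 and 3259073 for CGRP macrophages.

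Nuclear receptors of this kind bind small lipophilic ligands and regulate transcription directly at the DNA. RAR, LXR, PPAR and VDR proteins do so as heterodimers with an RXR, so the RXRs are partners that all the others share. The ligands are retinoic acid for the RARs, oxysterols for the LXRs, fatty acids and their derivatives for the PPARs and calcitriol for VDR. In myeloid cells, RARα is known for its role in granulocyte differentiation, the LXRs for cholesterol efflux, PPARγ for lipid uptake and the alternatively activated state of macrophages, and VDR for antimicrobial genes. CGRP signals through a G protein-coupled receptor that raises cyclic AMP.

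With CGRP, 3 of the 9 receptor genes changed in macrophages, where 7.43% of the 9393 genes tested were called. Because earlier results were known when the receptors were chosen, these shares are set side by side only as a description. *Vdr* rose 10.3-fold, *Rarg* rose 2.16-fold and *Pparg* was 3.38-fold lower. None of the 7 receptors that could be tested in neutrophils passed the threshold, against 2.53% of the 9819 genes tested there. In the resting cells, *Nr1h3* and *Pparg* were far higher in macrophages and *Rara* far higher in neutrophils. The lower counts of a receptor in bulk RNA can come from fewer cells of a type or from less RNA per cell, and these cannot be told apart here.

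The promoters of the 3 genes that changed with CGRP are shown so that letters which receptors of this family are known to bind can be seen in the genes that moved. In GRCm38, *Vdr* lies at chr15:97854425-97910630 and *Rarg* at chr15:102234938-102257517, both on the minus strand, and *Pparg* at chr6:115360951-115490399 on the plus strand; all are protein-coding genes. Each sequence is the RefSeq window (GRCm38.p6, all 9 genes matched, 18 windows in all) of 300 bases, 250 before and 50 after an annotated start. *Vdr* has 1 such window, chr15:97908247-97908546 on the minus strand. *Rarg* has 2, of which the first, chr15:102257473-102257772 on the minus strand, is shown. *Pparg* has 3, of which the 2 that hold the half-site named below are shown, chr6:115360894-115361193 and chr6:115362099-115362398, both on the plus strand. Capitals mark the letters AGGTCA or their reverse complement TGACCT, the half-site that many of these receptors bind as a pair.
Vdr: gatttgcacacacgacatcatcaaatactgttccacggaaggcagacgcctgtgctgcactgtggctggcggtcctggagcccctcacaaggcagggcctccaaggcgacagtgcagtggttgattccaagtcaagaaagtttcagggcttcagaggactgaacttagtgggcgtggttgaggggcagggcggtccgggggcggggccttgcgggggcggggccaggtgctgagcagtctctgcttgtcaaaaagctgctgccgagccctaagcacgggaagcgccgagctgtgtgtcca
Rarg start 1: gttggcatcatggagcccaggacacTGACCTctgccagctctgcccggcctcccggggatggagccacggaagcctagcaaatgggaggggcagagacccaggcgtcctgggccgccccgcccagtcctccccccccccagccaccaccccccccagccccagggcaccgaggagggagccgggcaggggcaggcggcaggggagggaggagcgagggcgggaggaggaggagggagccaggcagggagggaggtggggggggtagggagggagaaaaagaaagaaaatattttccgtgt
Pparg start 1: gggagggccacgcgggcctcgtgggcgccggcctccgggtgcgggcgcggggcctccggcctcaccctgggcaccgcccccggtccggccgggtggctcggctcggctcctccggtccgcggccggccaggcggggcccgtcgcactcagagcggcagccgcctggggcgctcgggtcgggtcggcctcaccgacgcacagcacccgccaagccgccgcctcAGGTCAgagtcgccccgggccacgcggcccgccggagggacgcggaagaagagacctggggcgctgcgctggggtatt
Pparg start 2: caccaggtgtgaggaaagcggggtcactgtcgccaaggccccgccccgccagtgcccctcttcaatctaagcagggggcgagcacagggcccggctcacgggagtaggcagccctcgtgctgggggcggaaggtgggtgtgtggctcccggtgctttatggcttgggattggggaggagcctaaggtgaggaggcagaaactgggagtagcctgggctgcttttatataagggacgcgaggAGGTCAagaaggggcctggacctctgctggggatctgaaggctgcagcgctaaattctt

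The half-site AGGTCA, searched on both strands, lay at position -225 of the *Rarg* window (counted from 1 at the first transcribed base, with no 0), at -28 and -9 in the *Pparg* windows, and nowhere in the *Vdr* window. It occurred in 5 of the 18 windows, those of *Rara* (1 of 4), *Rarg* (1 of 2), *Rxra* (1 of 2) and *Pparg* (2 of 3), against 16.3% of the 32851 promoter windows of the table. The letters TGACG, the short form of the cyclic AMP response element, were found in 5 windows, of *Rara*, *Rxrb*, *Nr1h2* and *Ppard* (background 20.8%). The full palindrome TGACGTCA, which contains TGACG, was in none (background 1.79%). A match is a description of the letters in the window, and the counting at the 3′ end of transcripts does not tell which start was used.

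Levels are given as CPM (counts in a library relative to its total, rescaled by TMM within each cell type). A positive log2 fold change means higher with CGRP, and its adjusted p comes from limma-voom over all genes tested. Because the libraries were counted at the 3′ end, the level of a receptor is compared between groups and not with that of another receptor. For marker lists, the gene with the most counts is named with no adjustment for length. The 3 receptors past the threshold in macrophages compare with 7.43% of the 9393 genes tested there, 3.46% higher and 3.97% lower. The groups did not overlap for 4 of the 9, against 24.1% of all genes tested. In neutrophils, 0 of 7 passed, against 2.53% of 9819 genes (1.51% higher and 1.02% lower). There, 3 receptors had an unadjusted p under 0.05, against 12.8% of the genes tested. In the same neutrophils edgeR and DESeq2 also called 0, and the groups did not overlap for 2 of the 7, against 17.8% of the genes tested.

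**Figure D1:**
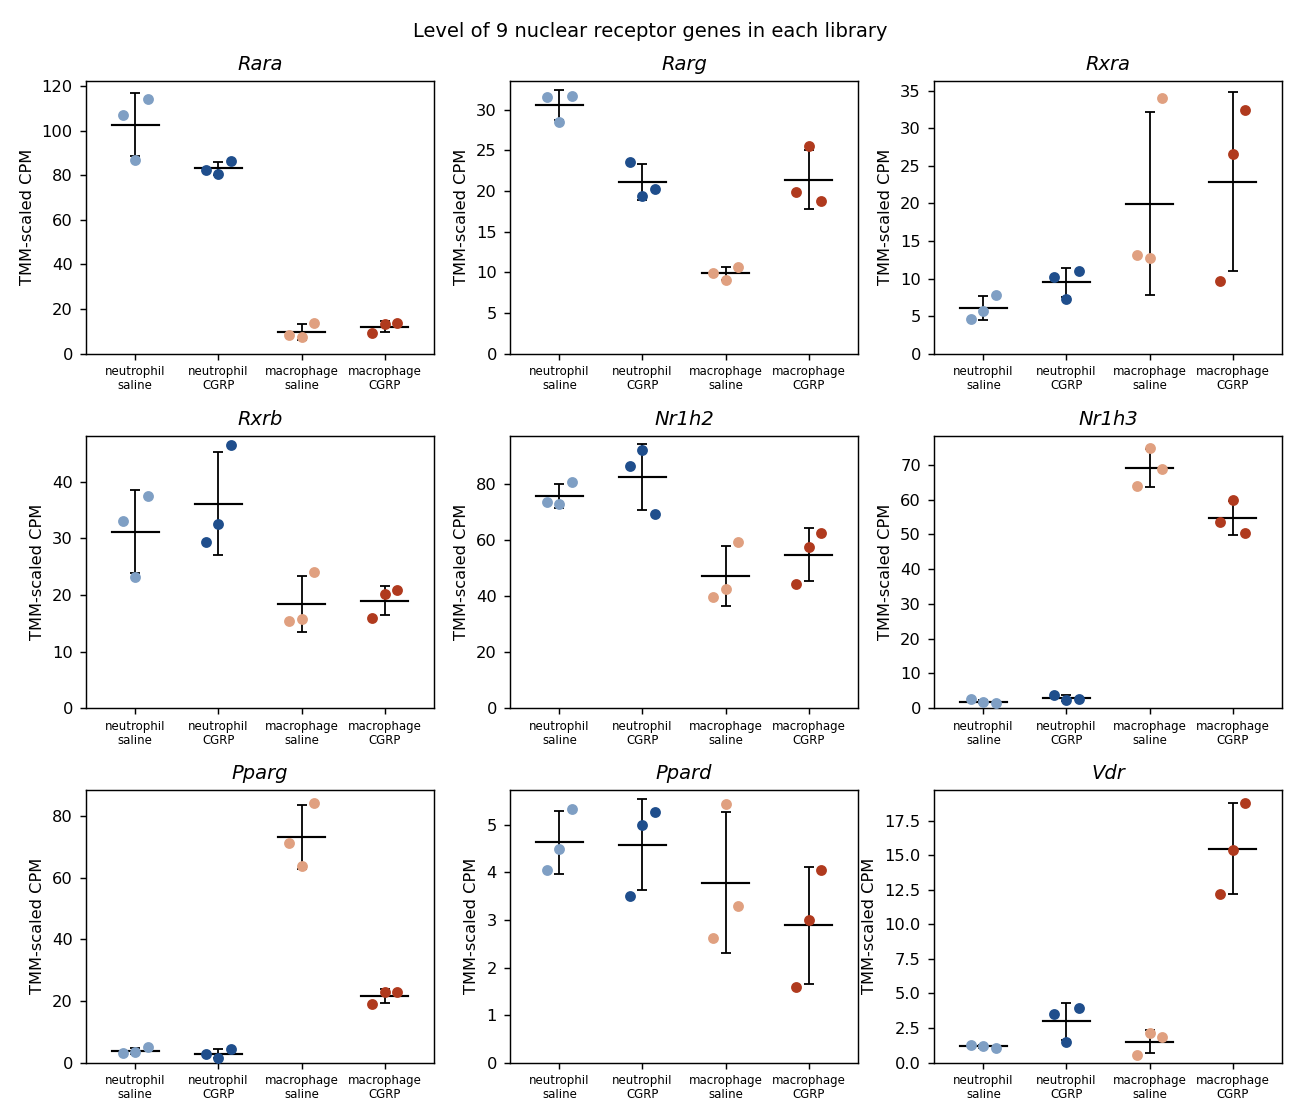
Level of each receptor gene (TMM-scaled CPM, scaled within a cell type; each panel has its own axis from 0) in the 12 libraries, with points for the libraries in replicate order, a line for the mean of 3 and a bar for the SD. *Pparg*, *Vdr*, *Rarg* and *Nr1h3* separate by treatment in macrophages, of which *Nr1h3* was not called. *Rara* and *Rarg* (not called) and *Vdr* (not tested) also separate by treatment in neutrophils. *Rara* lies far higher in neutrophils, and *Nr1h3* and *Pparg* far higher in macrophages.

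Among the libraries, macrophage saline replicate 3 stood apart from the other saline replicates for several receptors, as did CGRP replicate 1 from the other CGRP replicates. *Rxra*, *Rxrb*, *Nr1h2* and *Rara* were all highest in replicate 3 of the saline group and lowest in replicate 1 of the CGRP group. Over the 6 macrophage libraries, the log2 levels of *Rxra* and *Rxrb* had a Pearson r of 0.946 and those of *Rara* and *Nr1h2* an r of 0.951, given as descriptions since the values share library scaling and depth. The CGRP effects of these 4 genes in macrophages are given below with and without these 2 libraries.

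Of the retinoic acid receptors, *Rarg* changed with CGRP in macrophages and its CGRP effect differed between the 2 cell types. The saline macrophages had *Rarg* levels of 9.90, 9.09 and 10.6 CPM and the CGRP macrophages 19.9, 25.5 and 18.8 CPM. Every CGRP library lay above every saline library, and the mean rose from 9.86 ± 0.755 to 21.4 ± 3.59 (SD, n = 3 each). The log2 fold change of *Rarg* was 1.11 (SE 0.24, 95% interval 0.60 to 1.62, adjusted p = 0.00831 in limma-voom). Without CGRP replicate 2 it was 0.98 with an adjusted p of 0.062 in limma-voom, the only leave-one-out fit of 6 in which it missed the threshold. Without saline replicate 1 it passed only narrowly (1.12, adjusted p = 0.0499 in limma-voom). The saline neutrophils had 31.5, 28.5 and 31.7 CPM and the CGRP neutrophils 23.6, 19.4 and 20.2 CPM. Those groups did not overlap either, with every CGRP library below, and the log2 fold change was -0.53 (SE 0.16, 95% interval -0.87 to -0.19), but it did not pass (adjusted p = 0.101 in limma-voom). The difference between the 2 effects, macrophages minus neutrophils, was 1.66 on the log2 scale (SE 0.28, adjusted p = 0.00106 in limma-voom, 95% interval 1.08 to 2.23). *Rarg* was the 1 receptor of 9 called in that interaction test, in which 2.36% of 10694 genes were called.

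*Rara*, the receptor linked to granulocyte differentiation, was at 107, 86.9 and 114 CPM in saline neutrophils and at 82.5, 80.7 and 86.4 CPM in CGRP neutrophils. The groups did not overlap, although their nearest libraries were close, and the log2 fold change of -0.29 had an adjusted p of 0.243 in limma-voom (95% interval -0.52 to -0.06). In macrophages *Rara* lay between 7.27 and 13.9 CPM with saline and between 9.31 and 13.7 CPM with CGRP, so the groups overlapped (log2 fold change 0.33, 95% interval -0.30 to 0.97, adjusted p = 0.595 in limma-voom). Its effect was 0.58 without saline replicate 3, 0.55 without CGRP replicate 1 and between 0.15 and 0.26 with any other library of the 6 left out, and none passed. The interaction was 0.63 with an adjusted p of 0.396 in limma-voom. The third retinoic acid receptor gene, *Rarb*, had 0 counts in all 12 libraries, which allows a level of up to 0.826 to 1.5 CPM per library (3 counts of the total, counting error only).

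The share of *Rarg* in the RAR counts restates the counts above in another form. *Rarg* took 50.9% ± 6.67 (SD, n = 3) of the counts of *Rarg* and *Rara* together with saline and 63.8% ± 5.34 with CGRP. The CGRP libraries were at 68.1%, 65.4% and 57.8% and the saline libraries at 54.0%, 55.6% and 43.3%, the lowest being replicate 3. The nearest libraries cannot be told apart, with exact (Clopper-Pearson) 95% intervals of 41.4% to 69.1% for saline replicate 2 and 44.8% to 70.1% for CGRP replicate 3, which cover counting error only. In neutrophils the share was 23.1% ± 1.48 with saline and 20.2% ± 1.79 with CGRP, and the ranges overlapped. A share of counts is not a share of molecules where transcripts differ in how they are primed, so the groups are compared and the subtypes are not, and no test was run on the shares.

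**Figure D2:**
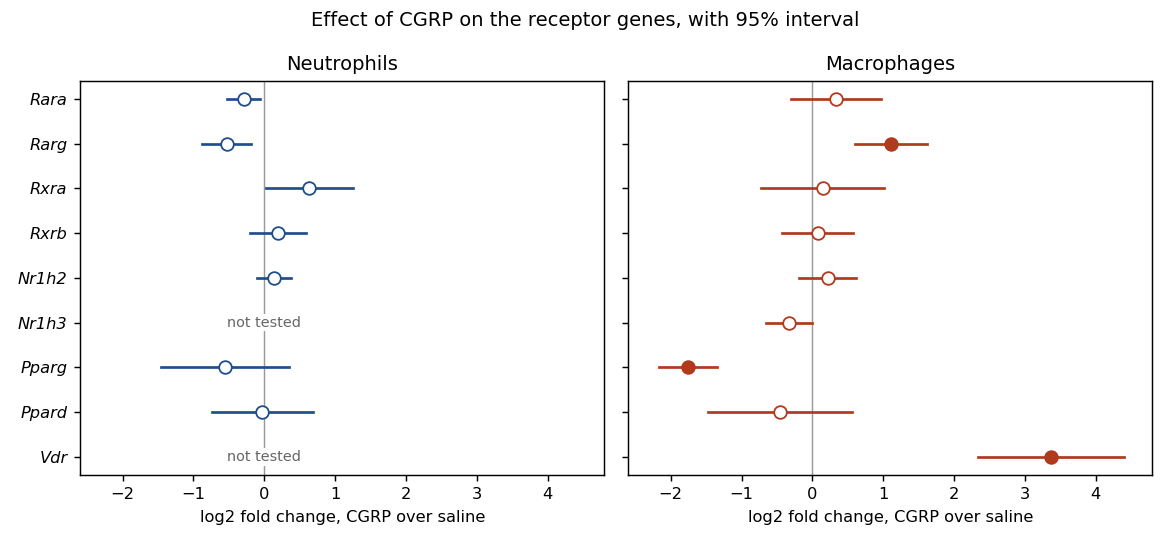
Log2 fold change of each receptor gene with CGRP against saline (points, limma-voom) with its 95% interval (lines) in neutrophils (left) and macrophages (right); filled points have an adjusted p under 0.05 and 2 genes had too few counts to be tested in neutrophils. *Vdr* (3.37), *Rarg* (1.11) and *Pparg* (-1.76) are the filled points, all in macrophages, and *Rarg* has its neutrophil point on the other side of 0, at -0.53.

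The RXR partners did not pass in either cell type. *Rxra* was at 13.1, 12.7 and 34.0 CPM in saline macrophages and at 9.63, 26.6 and 32.5 CPM in CGRP macrophages. Saline replicate 3 and CGRP replicate 1 each lay far from the other 2 libraries of their group. The coefficient of variation was 61.0% with saline and 51.9% with CGRP, against 12.9% and 13.5% from counting alone. The log2 fold change was 0.14 (95% interval -0.73 to 1.01, adjusted p = 0.891 in limma-voom). It was 0.56 without saline replicate 3, the highest of its group, and 0.75 without CGRP replicate 1, the lowest of its group. Its sign turned in the other 4 leave-one-out fits, which gave -0.07 and -0.09 without saline replicate 1 or 2 and -0.10 and -0.15 without CGRP replicate 2 or 3. None of the 6 passed, so neither a rise nor a fall could be resolved in these libraries. The saline neutrophils had *Rxra* at 4.67, 5.70 and 7.84 CPM, against 10.2, 7.34 and 11 CPM in the CGRP neutrophils. The ranges overlapped, and the log2 fold change of 0.63 (95% interval 0.02 to 1.25) had an unadjusted p of 0.044 in limma-voom and an adjusted p of 0.366. *Rxrb* was at 18.4 ± 4.93 and 19.0 ± 2.61 CPM in saline and CGRP macrophages and at 31.2 ± 7.34 and 36.1 ± 9.14 CPM in the neutrophil groups (SD, n = 3). Its intervals, -0.43 to 0.58 in macrophages and -0.20 to 0.59 in neutrophils, both include 0. The macrophage effect of *Rxrb* was 0.07, and it was 0.26 without saline replicate 3, 0.21 without CGRP replicate 1, -0.04 without saline replicate 1 and -0.02 without saline replicate 2, none of which passed. *Rxrg*, the third RXR gene, had 2 counts in 1 neutrophil library and 0 in the others.

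For the LXRs, *Nr1h3* was at 63.8, 74.8 and 68.7 CPM in saline macrophages and at 53.6, 60.0 and 50.3 CPM with CGRP. Every CGRP library lay below every saline library, and the mean was 69.1 ± 5.55 against 54.6 ± 4.92 CPM (SD, n = 3). The log2 fold change of -0.33 (SE 0.15, 95% interval -0.66 to -0.01) had an unadjusted p of 0.0446 and an adjusted p of 0.237 in limma-voom, so it was not called. *Nr1h2* had means of 47.1 ± 10.6 and 54.7 ± 9.39 CPM in saline and CGRP macrophages (log2 fold change 0.22, 95% interval -0.18 to 0.62), with overlapping ranges. Its effect was 0.39 without saline replicate 3, 0.38 without CGRP replicate 1 and between 0.10 and 0.17 with any other library left out, and none passed. The share of *Nr1h3* in the counts of the pair was 59.7% ± 5.33 with saline and 50.2% ± 5.15 with CGRP in macrophages, with libraries at 61.7%, 63.8% and 53.7% and at 54.8%, 51.1% and 44.6%. The ranges overlapped through saline replicate 3 and CGRP replicate 1. In neutrophils *Nr1h3* had between 4 and 12 counts in a library and was not tested. *Nr1h2* was at 75.6 ± 4.24 and 82.5 ± 11.7 CPM there, with a log2 fold change of 0.14 (adjusted p = 0.693 in limma-voom).

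*Pparg*, a regulator of lipid uptake and storage, was at 71.3, 63.9 and 84.4 CPM in saline macrophages and at 18.9, 22.9 and 22.9 CPM in CGRP macrophages. All 3 CGRP libraries lay far below the lowest saline library, and the mean fell from 73.2 ± 10.4 to 21.6 ± 2.27 CPM (SD, n = 3). The gene was 3.38-fold lower, with a log2 fold change of -1.76 (SE 0.19, 95% interval -2.16 to -1.35, adjusted p = 1.72e-05 in limma-voom), and it ranked 52 by size among the 373 genes that fell. The call held in every one of the 10 alternative fits and 6 leave-one-out fits run for it. In neutrophils *Pparg* had between 5 and 14 counts in a library, and its log2 fold change of -0.56 (95% interval -1.46 to 0.34) had an adjusted p of 0.664 in limma-voom. The interaction of -1.20 (95% interval -2.20 to -0.19) had an adjusted p of 0.26 in limma-voom, so a difference between the cell types was not shown.

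*Ppard*, the subtype expressed in most tissues, was low in all groups, at 3.79 ± 1.48 and 2.89 ± 1.23 CPM in saline and CGRP macrophages and at 4.63 ± 0.657 and 4.59 ± 0.948 CPM in the neutrophil groups (SD, n = 3). With between 5 and 18 counts in a library its interval in macrophages ran from -1.47 to 0.56, which includes changes in both directions. *Pparg* took 94.9% ± 2.43 of the pair's counts in saline macrophages and 88.5% ± 3.64 in CGRP macrophages, with a highest CGRP library of 92.2% and a lowest saline library of 92.1%, so the ranges just overlapped. *Ppara* had 0 counts in all 12 libraries.

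*Vdr* had 2, 7 and 5 counts in the saline macrophage libraries and 38, 41 and 37 in the CGRP libraries. Scaled, these were 0.582, 2.12 and 1.83 CPM in the saline libraries and 12.2, 15.4 and 18.8 CPM in the CGRP libraries, so the groups were far apart but the saline level was near the floor of 3 counts. The log2 fold change was 3.37 (SE 0.49, 95% interval 2.33 to 4.40, adjusted p = 0.000294 in limma-voom), which placed it 15 by size among the 325 genes that rose. In neutrophils the saline libraries held 4, 4 and 3 *Vdr* counts and the CGRP libraries 11, 5 and 9, at 1.17 ± 0.0919 and 2.97 ± 1.32 CPM. Every CGRP library was above every saline library, but the gene had too few counts to enter the test there. Fitted without a filter on low counts, its log2 fold change in neutrophils was 1.05 with an adjusted p of 0.61 in limma-voom. The interaction of 2.30 (SE 0.73, 95% interval 0.78 to 3.82) had an adjusted p of 0.114 in limma-voom and of 0.0163 with sample quality weights, so the call depends on that choice.

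**Figure D3:**
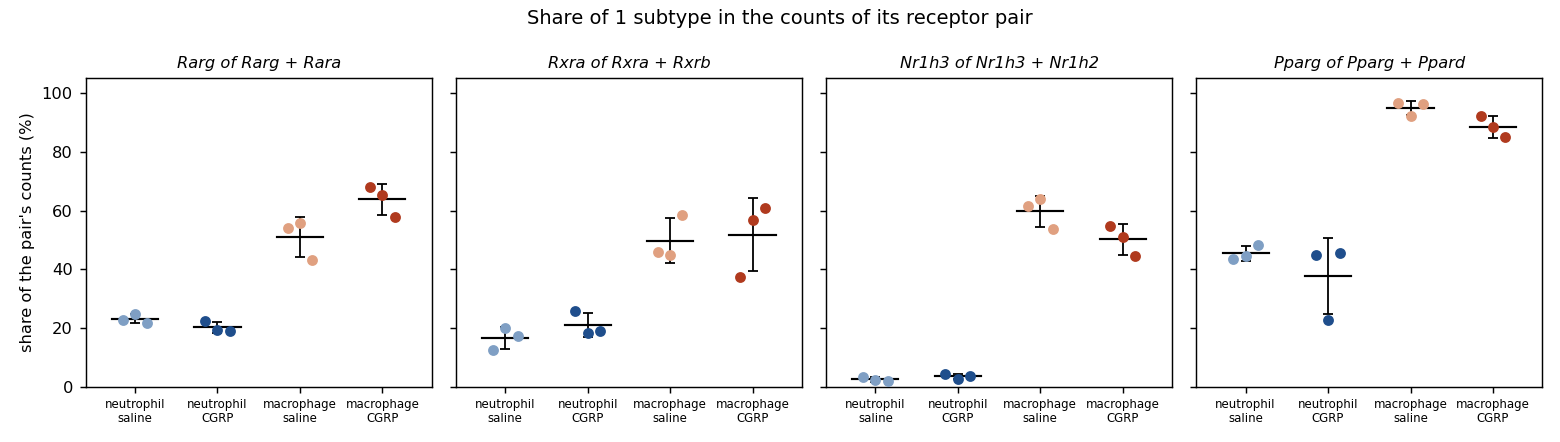
Share of the named subtype in the summed counts of its receptor pair (percent) in each of the 12 libraries, with a line for the mean of 3 and a bar for the SD. The *Rarg* share of the RAR pair is higher in every CGRP macrophage library than in any saline one, and the *Nr1h3*, *Pparg*, *Rarg* and *Rxra* shares are all lower in neutrophils.

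The resting cells were compared between the saline groups, with levels scaled over all 12 libraries. Cell type, isolation kit, medium and culture time cannot be told apart in this contrast. Of the 9 receptors, 7 passed, 3 higher and 4 lower in macrophages, against 67.9% of the 10694 genes tested (32.5% higher and 35.4% lower). The groups did not overlap for 6 of them, against 70.5% of the genes, so the share of receptors that differed is near that of all genes. *Nr1h3*, the LXR subtype known as the more restricted in tissue, was 32.9-fold higher in macrophages (log2 difference 5.04, SE 0.35, adjusted p = 1.49e-11 in limma-voom). *Pparg* was 17.8-fold higher (4.16) and *Rxra* 2.80-fold (1.49, adjusted p = 0.00731 in limma-voom). The *Rxra* difference was 1.08 without saline macrophage replicate 3, still past the threshold. On the other side, *Rara* was 11.1-fold lower in macrophages (-3.47), *Rarg* 3.17-fold (-1.66), *Rxrb* 1.75-fold (-0.81, with overlapping libraries) and *Nr1h2* 1.69-fold (-0.76). *Ppard* (-0.37) and *Vdr* (0.09) did not pass. The interval of *Vdr*, -1.19 to 1.37, is wide, and its saline libraries held between 2 and 7 counts.

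Ordered by mean level over the 4 groups (scaled over all 12 libraries), *Rara* was highest in saline neutrophils, followed by CGRP neutrophils and then by both macrophage groups, which overlapped. *Rarg* ran from saline neutrophils through CGRP neutrophils and CGRP macrophages, which overlapped each other, to saline macrophages, below the rest. For *Nr1h3* and *Pparg* the order was saline macrophages, CGRP macrophages and then the neutrophil groups, which overlapped. *Vdr* was highest in CGRP macrophages, and the other groups overlapped with their neighbours in order. For *Nr1h2* both neutrophil groups lay above both macrophage groups, with the treatments overlapping within each cell type. For *Rxra* the macrophage means were above the neutrophil means, but CGRP replicate 1 of the macrophages, at 9.40 CPM, lay within the range of CGRP neutrophils. For *Rxrb* the neutrophil means were above the macrophage means, but saline macrophages overlapped saline neutrophils, and all neighbouring groups overlapped for *Ppard*.

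The labelled cell types were checked against marker genes. The 11 neutrophil markers summed to 192000 ± 35400 CPM in saline neutrophils and to 349 ± 46.4 CPM in saline macrophages (SD, n = 3), with *S100a8* the most abundant, and all 11 were lower in macrophages. Of the 11 monocyte and macrophage markers, 10 were higher in macrophages and *Ly6c2* was lower. In neutrophils those 11 summed to 24690 ± 2690 CPM with saline and 19190 ± 2380 CPM with CGRP, of which *Lyz2* gave 21340 and 16270 CPM. For this sum every CGRP library lay below every saline library, and its part in the neutrophil receptor values was not tested. *Lyz2* encodes a lysozyme that neutrophils also make, and it was the 1 marker that passed the CGRP test. Its log2 fold change was -0.39 (adjusted p = 0.0296 in limma-voom, 0.158 in edgeR). The call was also lost in limma-voom with replicate number as a block (adjusted p = 0.0742) and in a single fit over 12 libraries (0.235). The call held in only 2 of 6 leave-one-out fits (without saline replicate 3 or CGRP replicate 1), with an adjusted p of up to 0.176 in limma-voom, and its part in the lower *Rara* and *Rarg* values of neutrophils was not tested. In macrophages, all 11 monocyte and macrophage markers and all 8 neutrophil markers tested had positive log2 fold changes with CGRP, with medians of 0.226 and 0.379, and none passed. The neutrophil marker sum was 435.8 ± 18.3 CPM there with CGRP, above every saline library. The B cell sum (32.88 ± 1.07 with saline, 39.62 ± 1.43 with CGRP), the basophil, mast cell and eosinophil sum (8.42 ± 0.352 and 11.99 ± 2.05) and the dendritic cell sum (4.364 ± 0.756 and 8.142 ± 1.42) also did not overlap between the treatments. The part of these markers in the macrophage receptor changes was not tested.

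Markers of other cell types were also counted in neutrophils. The 6 erythroid markers summed to 6406 ± 760 CPM in saline neutrophils (most from *Hbb-bs*) and 6294 ± 659 CPM with CGRP. The 5 basophil, mast cell and eosinophil markers summed to 1029 ± 81.5 and 990.5 ± 77.5 CPM (most from *Prg2*) and the 6 T and NK cell markers to 121.8 ± 7.68 and 99.01 ± 13.1 CPM (most from *Nkg7*). The T and NK sum was lower in every CGRP library than in any saline library of neutrophils, whereas the erythroid, basophil, platelet, B cell and dendritic cell sums overlapped, and its part in the neutrophil values was not tested. The 6 platelet markers summed to 166.2 ± 0.622 and 170.9 ± 37.5 CPM (most from *Pf4*) and the 5 B cell markers to 105.1 ± 7.90 and 113.7 ± 5.25 CPM (most from *Cd79b*). The 5 dendritic cell markers summed to 21.23 ± 4.51 and 22.05 ± 4.85 CPM, with *Cd209a* the most abundant. In macrophages the erythroid sum was 22.46 ± 1.74 CPM with saline and the T and NK sum 0.716 ± 0.304, with *Cd3d*, *Cd3e*, *Cd3g* and *Gzma* at 0 in that group, whereas *Pf4*, which macrophages can also express, was at 769.8 ± 188 CPM. Also at 0 in saline macrophages were *Gp1bb* and *Gp9* of the platelet list, *Cd79a* and *Ms4a1* of the B cell list, *Epx* of the eosinophil list and *Xcr1* of the dendritic cell list. None of the genes named in this paragraph passed the CGRP test where it was run. Those at 0 in saline macrophages were not tested in macrophages. Of them, *Gp9*, *Cd3e*, *Cd3g*, *Gzma* and *Xcr1* were not tested in neutrophils either.

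The target genes of the receptors are listed next as background, from lists assembled with earlier results of these data known. Of 18 LXR target genes, 14 were tested in macrophages, 5 rose with CGRP and 1 fell, against 3.46% and 3.97% of all genes tested, and the median log2 fold change was 0.300 against 0.0047 for all genes tested. *Abca1*, the transporter that moves cholesterol out of the cell, rose from 50 ± 14.7 to 165 ± 42.5 CPM (log2 fold change 1.73, adjusted p = 7.52e-05 in limma-voom). *Arl4c*, a small GTPase, rose from 40.4 ± 13.1 to 119 ± 18.5 CPM (1.60) and *Pltp*, a phospholipid transfer protein, from 488 ± 104 to 789 ± 162 CPM (0.69). *Apoe* (0.46) and *Apoc1* (0.90), apolipoproteins named after their values were seen, are the other 2. The *Apoe* call (adjusted p = 0.0263 in limma-voom) was lost in edgeR (0.0732) and in 3 of 6 leave-one-out fits, without saline replicate 1 (0.212) or CGRP replicate 2 (0.133) or 3 (0.151). The *Apoc1* call (adjusted p = 0.0301 in limma-voom) was lost in 4 of 6, without saline replicate 1 (0.132) or 3 (0.0655) or CGRP replicate 1 (0.0927) or 3 (0.0801). *Lpl*, a lipoprotein lipase, fell from 4430 ± 372 to 2830 ± 390 CPM (-0.65), and in neutrophils from 55.8 ± 6.45 to 19.9 ± 5.73 CPM (-1.48). *Abcg1*, the other well known cholesterol efflux transporter among LXR targets, had a log2 fold change of -0.08 in macrophages and was not called. Without saline replicate 1 the calls of *Pltp* (0.62, adjusted p = 0.142 in limma-voom) and of *Lpl* in macrophages (-0.63, 0.0593) were lost, and that of *Pltp* also without CGRP replicate 2 (0.60, 0.138) or 3 (0.60, 0.107). Library totals without TMM also ended the *Pltp* call (0.64, 0.0521). The *Lpl* fall was the 1 call of 14 tested in neutrophils, where 2.53% of all genes were called, with a list median of 0.090. At rest, 10 of the 15 LXR targets tested were higher in macrophages and 0 lower, against 32.5% and 35.4% of all genes tested, so the share called in either direction was near the 67.9% of all genes.

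Of 22 PPAR target genes, 16 were tested in macrophages, 2 rose and 2 fell, against 3.46% and 3.97% of all genes tested, with a median log2 fold change of 0.058. *Lpl* was placed in the LXR list and is not among these. The fatty acid-binding protein *Fabp4* fell from 728 ± 109 to 321 ± 56.1 CPM (-1.19, adjusted p = 9.35e-05 in limma-voom), and the lipid droplet protein *Plin2* from 944 ± 56.7 to 654 ± 17.4 CPM (-0.53). *Angptl4*, a secreted inhibitor of lipoprotein lipase, rose from 47.6 ± 1.40 to 70.3 ± 4.24 CPM (0.56) and *Hilpda*, a lipid droplet protein, from 10.4 ± 1.55 to 21 ± 7.71 CPM (1.00). The scavenger receptor *Cd36* was not called (-0.18, adjusted p = 0.511 in limma-voom). The list therefore moved both ways, and the *Fabp4* fall and the *Hilpda* and *Angptl4* rises are each 1 gene. Left-out libraries ended 3 of these 4 calls: *Plin2* was lost without saline replicate 1 or CGRP replicate 2 (adjusted p = 0.102 and 0.0831 in limma-voom), *Angptl4* held only without saline replicate 3 (highest adjusted p 0.142) and *Hilpda* only without CGRP replicate 3 (highest adjusted p 0.19), while *Fabp4* held in all 6 fits. *Angptl4* was also lost with library totals, without the filter on low counts and with thinning (adjusted p = 0.0575, 0.0718 and 0.0504 in limma-voom), and *Hilpda* with library totals, with thinning and with at least 10 counts in every library (0.0693, 0.0515 and 0.0504). In neutrophils 1 of 15 tested was called, against 2.53% of all genes, namely *Acadl*, an acyl-CoA dehydrogenase, which fell from 97.7 ± 5.20 to 59.2 ± 4.03 CPM (-0.72). At rest, 8 of 17 PPAR targets were higher in macrophages and 1 lower, against 32.5% and 35.4% of all genes, and the share called in either direction was below the 67.9% of all genes.

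**Figure D4:**
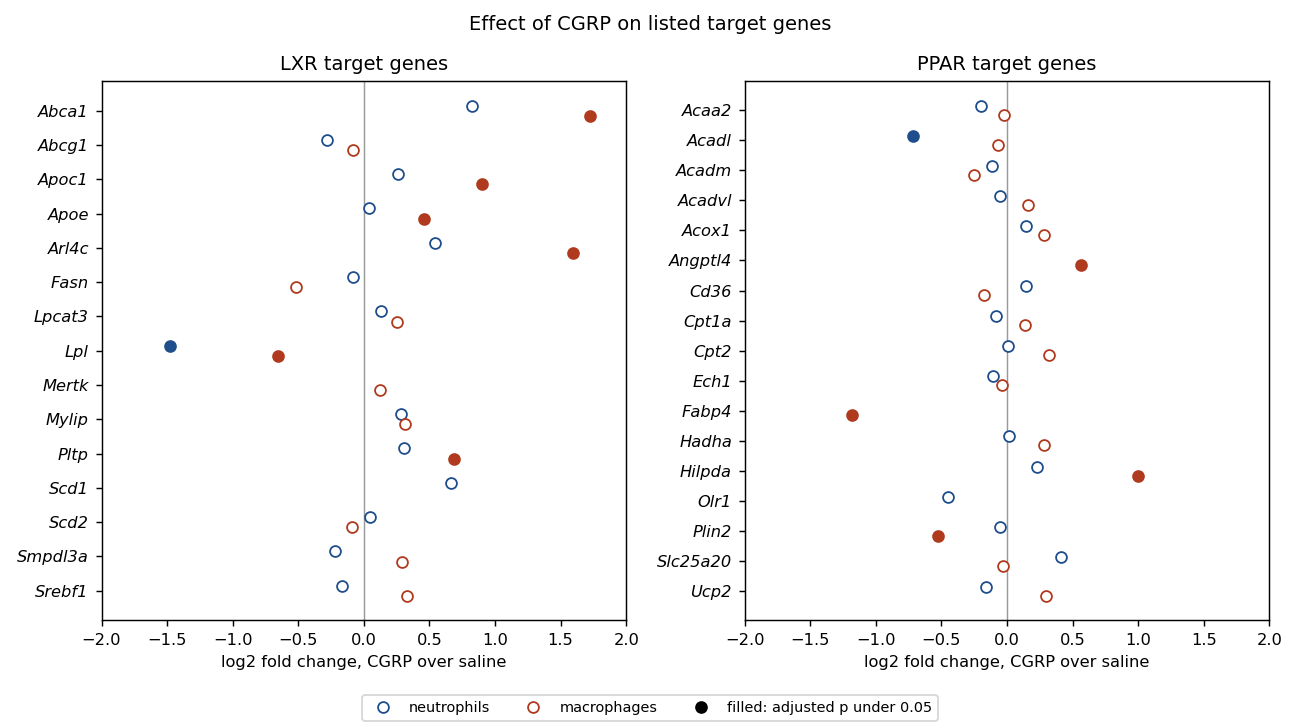
Log2 fold change with CGRP of each LXR target gene (left) and PPAR target gene (right) that could be tested in neutrophils or macrophages, with filled points for an adjusted p under 0.05. *Abca1* and *Arl4c* lie furthest right in macrophages, *Fabp4* furthest left among the macrophage PPAR targets, and *Lpl* is filled on the left in both cell types.

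Most genes for making, carrying and removing the ligands had too few counts to be tested. Of 20 genes of retinoid metabolism and transport, 6 were tested in neutrophils, with 1 called against 2.53% of all genes, and 5 in macrophages, with 0 called against 7.43%. *Dhrs3*, which reduces retinaldehyde to retinol, fell in neutrophils from 83.6 ± 4.54 to 47.7 ± 3.80 CPM (log2 fold change -0.82, adjusted p = 0.000217 in limma-voom), and had a log2 fold change of -0.43 in macrophages that did not pass (adjusted p = 0.228 in limma-voom). *Aldh1a1*, a retinaldehyde dehydrogenase, was counted in neutrophils and had 0 counts in all macrophage libraries. The retinoic acid-degrading *Cyp26a1* and the vitamin D-activating *Cyp27b1* had 0 counts in all 12 libraries, and the vitamin D-degrading *Cyp24a1*, a classical VDR target, had 1 count in 1 CGRP macrophage library. Of 11 vitamin D and oxysterol enzymes, 2 were tested in neutrophils and 1 in macrophages, and 0 were called.

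Of 23 coregulators that nuclear receptors recruit, 22 were tested in macrophages, 0 rose and 1 fell (against 3.46% and 3.97% of all genes tested), the coactivator *Ncoa3*, from 47.6 ± 6.92 to 30.5 ± 4.90 CPM (log2 fold change -0.65, adjusted p = 0.049 in limma-voom), and 21 were tested in neutrophils with 0 called, where 2.53% of all genes were. The *Ncoa3* call held in 1 of 6 leave-one-out fits, that without saline replicate 2, and its adjusted p otherwise reached 0.179 in limma-voom. It was also lost with DESeq2 (0.0594) and, in limma-voom, with library totals (0.0656) and without the filter (0.0595). Of 39 other nuclear receptors, 10 were tested in macrophages: the orphan receptors *Nr4a2* (log2 fold change 4.22) and *Nr4a1* (1.00) rose and the glucocorticoid receptor *Nr3c1* fell (-0.77), 3 calls of 10 against 7.43% of all genes tested. The call of *Nr4a1* was lost without saline replicate 1 (adjusted p = 0.0669 in limma-voom) and that of *Nr3c1* without saline replicate 1, CGRP replicate 1 or CGRP replicate 2 (0.0786, 0.0513 and 0.0806). In neutrophils 9 were tested and *Nr4a2* rose (1.47), 1 call against 2.53% of all genes. *Nr4a2* differed between the cell types (interaction 2.75, adjusted p = 0.000374 in limma-voom).

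The genes whose pattern over the 12 libraries was most like that of each called receptor were found by the Pearson correlation of log2 levels, which the cell type difference and the CGRP difference both enter and which shares library scaling. *Pparg* was most like *Sesn1* (r = 0.989), a stress-induced sestrin, the adaptor *Dok2* (0.984) and *Sirpa* (0.984), an inhibitory receptor of myeloid cells. *Vdr* was most like *Tbc1d17* (0.944), *Crem* (0.931), a transcription factor of the cyclic AMP pathway, and the transglutaminase *Tgm2* (0.928). *Rarg* was most like *Irs2* (0.942), an insulin receptor substrate, the elongation factor *Ell* (0.928) and *Bckdha* (0.917), an enzyme of branched-chain amino acid breakdown. In macrophages, *Sesn1* fell with CGRP (-1.74), as did *Dok2* and *Sirpa*, while *Crem* (3.68) and *Tgm2* (2.19) rose. *Ell* rose (0.76, adjusted p = 0.0203 in limma-voom), but its call was lost without saline replicate 1, CGRP replicate 2 or CGRP replicate 3 (0.135, 0.107 and 0.0646). *Tbc1d17* (0.56, adjusted p = 0.0722 in limma-voom), *Irs2* (1.19, 0.0846) and *Bckdha* (0.60, 0.106) did not pass.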

How the data were processed

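Reads were run by the authors through nfCore/RNAseq (version 3.2), which collapsed them by unique molecular identifier. They aligned them to GRCm38 with STAR, quantified genes with featureCounts and deposited raw counts, 1 table per cell type, without normalization. The annotation release and the strand setting are not given in the sources used here, so antisense and overlapping genes may share reads. Of the genes overlapping a receptor gene, *Gm22061*, *Gm13783*, *Gm23390* and *Gm44079* had at most 4 counts in a library. Their low counts do not show whether reads in an overlap were left out of the receptor's count. The longest overlap on the same strand was that of *Gm13783* with *Nr1h3*, 6873 bases. At most 0.837% of the 31-base sequences in the last 500 bases of a receptor's transcripts occurred in another gene. Priming was from the poly-A tail, so counts come from 3′ ends. No per-sample column was left unused.

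Each cell type's 6 libraries were filtered with filterByExpr, scaled by TMM and fitted by limma-voom (two-sided, Benjamini–Hochberg over all genes tested, threshold 0.05). The interaction and the resting contrast came from a fit over 12 libraries. Correlations used log2 of CPM plus 0.5. Intervals of fold changes have 95% confidence. Depth limits low genes, with 3 counts taken as the floor. The alternatives tried were DESeq2, its size factors in limma-voom, edgeR's quasi-likelihood test, library totals, no filter, at least 10 counts in every library, quality weights, thinning, a replicate block, a single fit, only the saline libraries for the resting contrast, and each library left out. The 4 differential comparisons were tested on simulated data.

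The receptors and the lists were chosen with earlier results of these data known. Named are all 9 receptors, up to 3 genes with the smallest adjusted p per list, cell type and direction, the 3 genes most like each called receptor, the most abundant marker of each list and markers at 0, of which 1 is not reported here. Outside this rule, *Apoe*, *Apoc1*, *Abcg1*, *Cd36*, *Aldh1a1*, *Cyp26a1*, *Cyp27b1*, *Cyp24a1*, *Rarb*, *Rxrg*, *Ppara* and *Ly6c2* were named after their values were seen. Of the identifiers, 52403 were found in GENCODE M21. Software: edgeR 4.0.16, limma 3.58.1, DESeq2 1.42.0, R 4.3.3, pandas 2.3.3, matplotlib 3.10.9, Python 3.11.15.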

Additional observations from a re-analysis of the deposited data

Results flagged for a closer look

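Among the 9 receptors and the list genes named for a CGRP change, the CGRP effect on 3 differed between the cell types by the test of the difference itself, in which 252 of 10694 genes (2.36%) were called over all genes. For *Rarg* the effect in macrophages minus that in neutrophils was 1.66 on the log2 scale (SE 0.28, adjusted p = 0.00106 in limma-voom). It was called in all 9 alternative fits and all 12 leave-one-out fits run for it, from 1.51 to 1.75. The orphan receptor *Nr4a2* had a difference of 2.75 (SE 0.42, adjusted p = 0.000374 in limma-voom) and was also called in every fit run for it. The LXR target *Arl4c* had a difference of 1.07 (SE 0.29, adjusted p = 0.0478 in limma-voom), but it was called in 6 of 9 alternative fits and 3 of 12 leave-one-out fits, with an adjusted p of up to 0.193.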

How the results depend on the processing

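The receptor calls in macrophages were the same 3 under every alternative fitted, except that *Vdr* could not be tested with at least 10 counts in every library and *Rarg* was lost without CGRP replicate 2. In 20 further thinned draws, added after seeing the data, *Rarg*, *Pparg* and *Vdr* were each called 20 times. The replicate numbers were not shown to pair the libraries: deviations of same-numbered libraries correlated at 0.043, -0.013 and 0.135 in neutrophils and at 0.058, -0.176 and 0.267 in macrophages. With the replicate block, 289 genes were called in neutrophils, 1007 in macrophages and 337 in the interaction, and the receptor calls were unchanged at 0, 3 and 1; not every library correlated best with its own number.

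Quality weights raised the macrophage count from 698 to 1406 and the interaction from 252 to 520, where 2 receptors were then called. A single fit over 12 libraries gave 1050 genes in macrophages and 137 in neutrophils. Leaving out 1 library gave between 347 and 765 genes in macrophages, 138 and 234 in neutrophils, and 149 and 328 in the interaction. Library totals without TMM moved the share of higher calls in neutrophils from 59.7% to 70.1%, in macrophages from 46.6% to 37.7% and in the interaction from 51.2% to 36.4%, whose median over all genes went from 0.02 to -0.10.

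Changes of sign occurred only for receptors in comparisons that did not call them. Library totals gave -0.02 for the *Nr1h2* interaction and 0.02 for *Ppard* in neutrophils, quality weights 0.00 for that and 0.02 for the *Rxrb* interaction, and thinning 0.02 for the latter. With 1 library left out, the ranges were -0.05 to 0.26 (*Nr1h2* interaction), -0.12 to 0.16 (*Ppard*, neutrophils), -0.78 to 0.14 (*Rxra* interaction), -0.15 to 0.75 (*Rxra*, macrophages), -0.28 to 0.09 (*Rxrb* interaction), -0.04 to 0.26 (*Rxrb*, macrophages), -0.02 to 0.33 (*Rxrb*, neutrophils) and -0.24 to 0.64 (*Vdr*, resting). The cause was not tested.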
